A study of Mus musculus with 5 samples.

Results

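The tubulins and actins described here were 10 genes expressed in mouse embryonic stem cells (mESCs), taken by gene symbol and not by any measured value. They were the α-tubulins Tuba1a, Tuba1b and Tuba1c, the β-tubulins Tubb5, Tubb4b, Tubb2a and Tubb2b, the γ-tubulin Tubg1, and the cytoplasmic actins Actb and Actg1. The 10 genes belonged to 21870 genes with a protein-coding transcript in the deposited table, and they held 19 protein-coding transcripts, or 34 transcripts of any type. All 19, and all 34, passed the filter of 1 CPM (reads on a transcript per 1000000 reads counted over all transcripts of its library, scaled by TMM) in at least 1 library. The protein-coding transcript with the highest mean CPM over all 5 libraries stands for its gene and is called its main transcript.

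Ribosome-protected fragments had been sequenced from 46C mESCs, a pluripotent line kept in medium with LIF (1000 units/ml) and 10% serum. Elongation was blocked with cycloheximide in every culture, and 1.3 U of RNase I then removed unprotected RNA from every lysate over 45 min. In standard RIBO-seq (n = 3), ribosomes were pelleted through 30% sucrose. In AHARIBO RIBO-seq (n = 2), growing peptides that carried AHA, a methionine analogue, were linked to 50 µM DBCO-PEG4-biotin and drawn onto magnetic beads with their ribosomes and mRNA. The labels give untreated as the treatment of all 5 libraries, and the methods do not restate an AHA dose for RIBO-seq. A legend of the study describes standard RIBO-seq as made from the input, the lysate before the pulldown. If both came from the same cultures, the comparison asks how footprints recovered through the nascent chain differ from footprints recovered by sedimentation. In the study, AHA is given after methionine depletion, which the methods do not restate for RIBO-seq either. Any difference between cultures cannot be told apart from the method of recovery. The labels call the libraries biological replicates.

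The counts over all transcripts summed to 6403651 to 11150527 per library after removal of duplicates, and 3 reads corresponded to 0.262 to 0.476 CPM. A read that matched several transcripts may be counted more than once in these sums, on which CPM and percentages of all reads rest. Genes that mark pluripotent cells, such as Pou5f1 at 214 to 276 CPM and Zfp42 at 164 to 186 CPM, were abundant in all 5 libraries. Of the 8 pluripotency markers, 2 were lower in AHARIBO RIBO-seq by the test used below (Klf4 and Sox2), where 2.53% of main transcripts were. Neither passed with DESeq2, with counts summed per gene, with the replicate number as a block, without AHARIBO replicate 1 or without standard replicate 1. The 6 fibroblast markers summed to 3.86 to 5.15 CPM in standard and 4.11 to 4.39 CPM in AHARIBO RIBO-seq, with Dcn at 0 in every library. The 6 primitive endoderm markers summed to 3.31 to 5.55 CPM and 2.8 to 4.09 CPM, with Ttr at 0 in every library. Of the 6 neuronal markers, which summed to 100.0 to 106 CPM and 99.2 to 99.4 CPM, Dcx was at or near 0, whereas Stmn2 lay between 54.9 and 59.8 CPM and Tubb3 between 31.7 and 36.8 CPM. In such bulk libraries, fewer cells with an mRNA and fewer ribosomes on it per cell cannot be told apart.

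α- and β-tubulin form the dimer that polymerises into microtubules, and γ-tubulin sits in the ring complex from which microtubules grow. Actin monomers polymerise into the filaments of the cell cortex. Both protein families are among the classic clients of the chaperonin TRiC, which receives them from prefoldin. Cells also adjust tubulin output by autoregulation, in which TTC5 reads a short N-terminal motif on nascent α- and β-tubulin and the translated mRNA is then degraded.

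The first 30 bases of each coding sequence are shown because they encode the part of the nascent chain that leaves the ribosome first, with codons 2 to 4 in capitals, which in α- and β-tubulin encode the motif that TTC5 reads. They are read 5′ to 3′ from the main transcripts of Gencode M21 (GRCm38).
Tuba1a: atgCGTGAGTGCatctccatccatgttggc
Tuba1b: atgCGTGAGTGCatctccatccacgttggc
Tuba1c: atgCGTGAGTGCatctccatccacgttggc
Tubb5: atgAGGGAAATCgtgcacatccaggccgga
Tubb4b: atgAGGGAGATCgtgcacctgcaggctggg
Tubb2a: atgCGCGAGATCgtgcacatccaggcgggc
Tubb2b: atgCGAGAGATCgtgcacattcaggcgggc
Tubg1: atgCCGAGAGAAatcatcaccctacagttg
Actb: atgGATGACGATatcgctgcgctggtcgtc
Actg1: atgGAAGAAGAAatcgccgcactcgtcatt
The capitals are the same in all 3 α-tubulins, whereas the 4 β-tubulins spell this stretch in 4 ways, and γ-tubulin and the actins differ from them and from each other.

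AHA can enter the chain at methionine codons, so the in-frame ATG codons were counted. Actb and Actg1 each held 17 ATG codons in 375 codons, or 4.53 per 100 codons, and the next ATG after the start was codon 16. This density lay at the 94.6th percentile of 21339 complete coding sequences, whose median was 2.27 per 100 codons. The β-tubulins held 17 (Tubb5), 18 (Tubb4b) and 19 (Tubb2a and Tubb2b) ATG codons, and their next ATG was codon 73. The α-tubulins held 10 each, at 2.22 to 2.23 per 100 codons, with the next at codon 36. Tubg1 held 11 in 451 codons, and its next ATG was codon 178. Among these genes, therefore, the density of methionine codons was lowest in α-tubulin, close to the median of all genes, and highest in actin.

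The genes lie apart in the genome except for the α-tubulin cluster and the Tubb2 pair. Tuba1b (chr15:98931425-98934565, minus strand), Tuba1a (chr15:98949837-98953703, minus strand) and Tuba1c (chr15:99029891-99038110, plus strand) lie side by side, each with 4 exons. Tubb2a (chr13:34074274-34078007) and Tubb2b (chr13:34126748-34130354) lie on the minus strand of 1 region, also with 4 exons. Tubb5 (chr17:35833921-35838306) and Tubb4b (chr2:25222160-25224702) have 4 exons, and Actb (chr5:142903115-142906754) and Actg1 (chr11:120345690-120348542) have 6, all on the minus strand. Tubg1 (chr11:101119938-101126419, plus strand) has 11 exons.

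Most of these genes share much of their coding sequence with each other or with processed pseudogenes. Every window of 30 nt in each coding sequence, a length within the 25 to 35 nt of the sequenced fragments, was looked up in all deposited transcripts. In Actg1, 100.0% of 1099 windows also occurred in another gene. The share was 97.3% in Tuba1b, 95.9% in Tuba1a and 94.8% in Tuba1c. It was 78.3% in Tubb4b, 76.1% in Tubb2b, 68.7% in Tubb2a, 45.8% in Actb and 33.1% in Tubg1. Tubb5 stood at the other end, with 4.21% of 1306 windows shared, so that nearly all fragments of this length from its coding sequence name the gene. The stacked bars of shared coding sequence show this range.

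**Figure D1:**
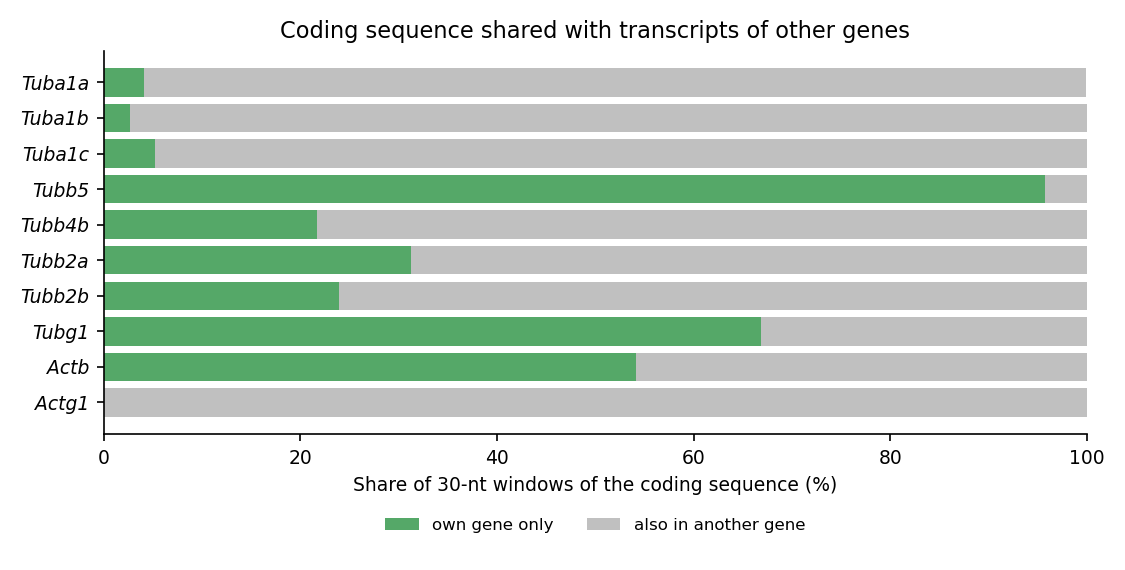
Share of the 30-nt windows of each coding sequence (horizontal axis, percent) that occur in transcripts of its own gene only (green) or also in another gene (grey), for the 10 genes. Tubb5 keeps 95.8% of its windows to itself, whereas Actg1 keeps 0%.

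The partners differed from gene to gene. Tuba1b shared 83.7% of its windows with Tuba1c and 72.1% with Tuba1a, and the proteins translated from Tuba1a and Tuba1b differed at 2 positions. Tubb2a and Tubb2b shared 62.1% with each other, and their translated proteins also differed at 2 positions. Tubb4b shared none of its windows with the other 9 genes, but 66.0% with Tubb4b-ps1 and 40.2% with Tubb4b-ps2. Actb and Actg1, whose translated proteins differed at 4 positions, shared only 10.0% of their windows, since their coding sequences were 88.7% identical. Actb shared 26.2% with the protein-coding gene Lrrc58 and as much with the pseudogene Gm15725, and Tubg1 shared 31.3% with Tubg2.

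The pseudogenes also carried reads. Gm12715, which holds 94.0% of the coding windows of Actg1, counted 90.5% as many reads as Actg1. Gm8399 holds 76.0% and counted 75.6%, and Actg-ps1 holds 58.7% and counted 55.5%. Tubb4b-ps1 holds 66.0% of the Tubb4b windows and counted 65.5% as many reads as Tubb4b. In these 4 pseudogenes the read count was close to the share of coding windows held. Where several genes share 1 pseudogene, the value depended on the gene it was set against. Gm3226 holds 74.4% of the Tuba1b windows and counted 75.0% as many reads, but holds 68.7% of the Tuba1a windows and counted 99.8% as many. Gm17383 counted fewer reads than its share against Tuba1b, with 73.2% of the windows and 52.5% as many reads. The levels of genes that share so much sequence cannot be given to 1 gene. The sources used here do not say how a read that matched several transcripts was counted. The aligner's default keeps reads that match up to 10 places, and 27.6% to 30.1% of the coding windows of the α-tubulins and Actg1, and 13.1% of those of Actb, had more places than that, against 0% in the β-tubulins and Tubg1.

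Levels were compared between genes as CPM per kb of transcript. Actb was highest, at 331 ± 21.8 CPM per kb in standard (SD, n = 3) and 274 ± 31.4 in AHARIBO RIBO-seq (SD, n = 2), and ranked 23 of 12372 main transcripts. Tuba1b followed at 220 ± 14.9 and 196 ± 19.3 CPM per kb, then Actg1 at 207 ± 12.2 and 178 ± 21.3. Tuba1c stood at 172 ± 11.7 and 154 ± 16.0, and Tuba1a at 160 ± 11.6 and 143 ± 13.7. Among the β-tubulins, Tubb5 was highest at 146 ± 5.71 and 131 ± 10.1 CPM per kb, and Tubb4b came next at 122 ± 4.67 and 110 ± 7.31. Tubb2b stood at 83.3 ± 2.65 and 75.1 ± 2.96 CPM per kb and Tubb2a at 81.2 ± 2.12 and 74.0 ± 2.07. Tubg1 was lowest at 12.4 ± 1.63 and 9.99 ± 0.495 CPM per kb, and ranked 2585.

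The order was the same in both methods. In standard RIBO-seq, the library values of 4 pairs of neighbours overlapped, namely Tuba1b with Actg1, Tuba1c with Tuba1a, Tuba1a with Tubb5, and Tubb2b with Tubb2a. In AHARIBO RIBO-seq, Actg1 also overlapped with Tuba1c. Divided by coding length, the order changed, and Actg1 (357 ± 21 CPM per kb of coding sequence, standard) and Tubb5 (290.0 ± 11.3) came before Tuba1b (283 ± 19.1). The main transcripts of Actg1 and Tubb5 have 700 and 1061 bases after the coding sequence, against 157 in Tuba1b. Tubb5 and Tuba1b overlapped on that scale. All these levels are without duplicates, whose removal took unequal shares of reads from these genes (below). With duplicates kept, Actg1 came before Tuba1b per kb of transcript in every library. In standard replicate 1 they then held 11865 reads on 1952 nt and 9401 on 1743 nt.

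**Figure D2:**
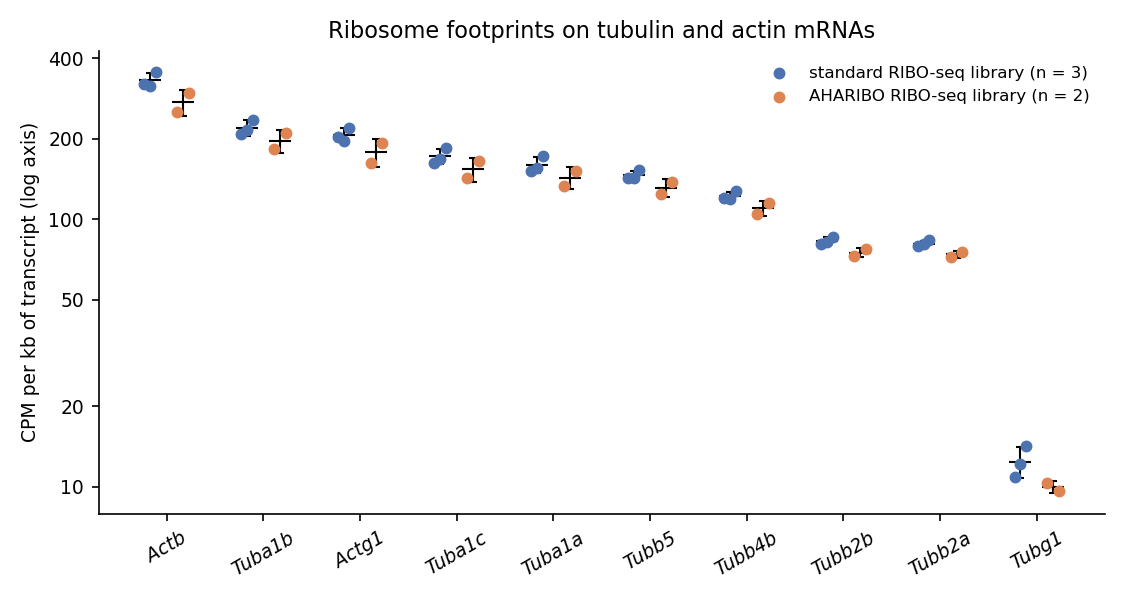
CPM per kb of transcript on a log axis for the main transcript of each gene, with 1 point per library (blue, standard RIBO-seq; orange, AHARIBO RIBO-seq) and the mean ± SD in black. Actb is highest at 331 CPM per kb in standard RIBO-seq and Tubg1 lowest at 12.4.

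Between the methods, Actb fell in AHARIBO RIBO-seq, and it was the only one of the 10 genes that passed the test. Actb measured 616, 607 and 684 CPM in standard replicates 1, 2 and 3, and 484 and 569 CPM in AHARIBO replicates 1 and 2. Both AHARIBO libraries lay below all standard libraries, and the lower of them, replicate 1, stood further off. The log2 fold change was -0.27 ± 0.08 (SE), a fall of 17.2%, with an adjusted p of 0.033 in edgeR's quasi-likelihood test. It was -0.16 without AHARIBO replicate 1 and -0.39 without AHARIBO replicate 2. None of the 10 genes rose, also at an unadjusted p under 0.05 or by DESeq2. Over all 66972 transcripts tested, 2.24% fell and 2.27% rose, and by DESeq2 0.206% fell and 0.193% rose. Transcripts to which DESeq2 gave no adjusted p count there as not called. The Actb call was lost with DESeq2 (adjusted p = 0.097), duplicate reads kept (0.19), 1 CPM required in every library (0.096), counts summed per gene (0.14) and the replicate block (0.47), and the adjusted p was 0.55 without AHARIBO replicate 1, 0.14 without standard replicate 1 and 0.18 without standard replicate 3.

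Actg1, the other cytoplasmic actin, measured 397, 383 and 429 CPM in standard and 317 and 376 CPM in AHARIBO RIBO-seq. These groups did not overlap either, but the log2 fold change of -0.22 ± 0.08 (SE) had an adjusted p of 0.11. Without AHARIBO replicate 1 it was -0.10, with an adjusted p of 0.77, and without AHARIBO replicate 2 it was -0.34, with an adjusted p of 0.011.

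The 3 α-tubulins gave nearly the same differences, and they share most of their sequence (above). Tuba1b measured 362, 375 and 412 CPM in standard and 318 and 366 CPM in AHARIBO RIBO-seq. Tuba1a measured 274, 279 and 312 CPM against 240.0 and 275 CPM, and Tuba1c 324, 332 and 367 CPM against 283 and 328 CPM. In all 3, AHARIBO replicate 2 lay within the range of the standard libraries and replicate 1 below it. The log2 fold change was -0.16 ± 0.08 (SE) in each, with adjusted p-values of 0.25 (Tuba1a and Tuba1b) and 0.27 (Tuba1c). It was -0.07 to -0.06 without AHARIBO replicate 1, -0.27 to -0.26 without AHARIBO replicate 2 and -0.11 to -0.10 without standard replicate 3, and none passed the test.

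The β-tubulins, the partners of α-tubulin in the dimer, also lay slightly lower. Tubb5, the gene with almost no shared sequence, measured 379, 378 and 405 CPM in standard and 329 and 367 CPM in AHARIBO RIBO-seq. Its log2 fold change was -0.15 ± 0.08 (SE), with an adjusted p of 0.26. Tubb4b, at 191, 191 and 204 CPM against 168 and 184 CPM, also had -0.15 ± 0.08 (SE; adjusted p = 0.28). The neighbouring genes Tubb2a (128, 130.0 and 134 CPM against 117 and 121 CPM) and Tubb2b (177, 180.0 and 188 CPM against 159 and 168 CPM) had -0.13 and -0.15, with adjusted p-values of 0.36 and 0.29. All 4 had both AHARIBO libraries below all standard libraries, as did 46.1% of main transcripts with a mean of at least 100 CPM, and none passed the test. Without AHARIBO replicate 1 the log2 fold change was -0.08 in both Tubb5 and Tubb4b (adjusted p = 0.84 and 0.83, edgeR), and without AHARIBO replicate 2 it was -0.23 and -0.22 (0.12 and 0.17).

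Tubg1, the γ-tubulin that nucleates microtubules, measured 19.7, 22 and 25.5 CPM in standard and 18.6 and 17.4 CPM in AHARIBO RIBO-seq. The groups did not overlap. Its log2 fold change of -0.30 ± 0.11 (SE) had an adjusted p of 0.11, and its error was the largest of the 10. The libraries held 161 to 213 reads of it.

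All 10 log2 fold changes were thus negative, with a median of -0.16. The median over 12372 main transcripts was 0.00, and 49.7% of all transcripts tested had a negative value. Both AHARIBO libraries lay below all standard libraries in 7 of the 10 genes, and so they did in 16.5% of all transcripts tested. At an unadjusted p under 0.05, 7 of the 10 were lower, against 9.24% of all transcripts. However, 9 of the 10 genes had over 100 CPM, and abundant transcripts as a whole lay lower. Among 488 main transcripts with a mean of at least 100 CPM, the median log2 fold change was -0.11, 76.6% had a negative value, 16% fell, 1.43% rose, 36.3% were lower at an unadjusted p under 0.05, and 46.1% had both AHARIBO libraries below all standard libraries. The 10 values are also not independent, given the shared sequence.

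**Figure D3:**
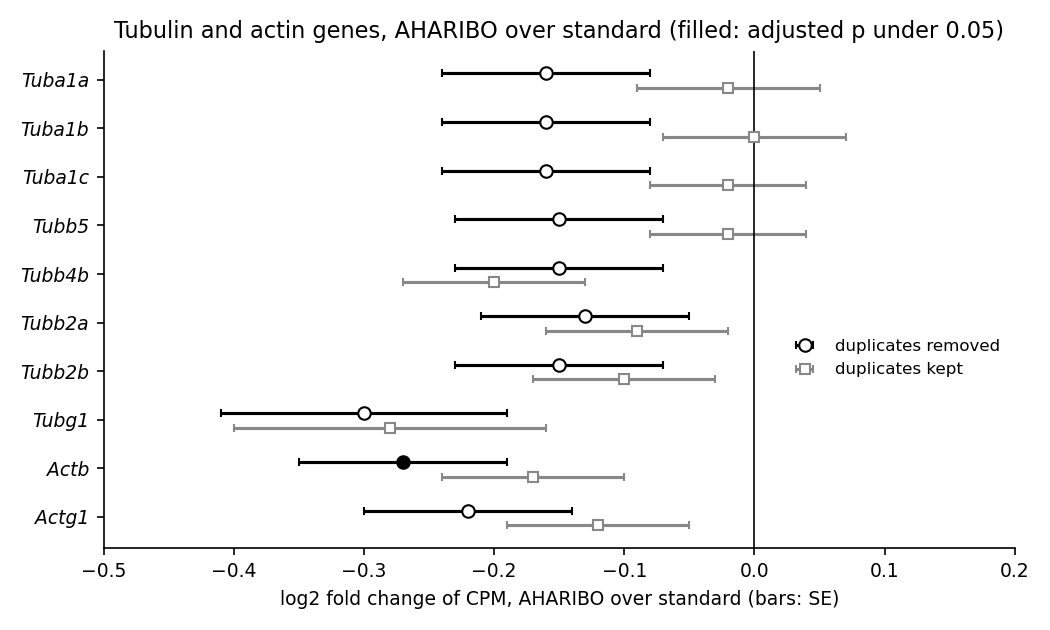
Log2 fold change of CPM (AHARIBO over standard RIBO-seq, horizontal axis, with SE) for the main transcript of each gene, with duplicate reads removed (circles) and kept (grey squares). Only Actb, filled, passed an adjusted p of 0.05 (-0.27), and with duplicates kept the α-tubulins and Tubb5 lie near 0.

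Removal of duplicates took a larger share of reads, in every library, from 9 of the 10 genes than from the median main transcript. Duplicates made up 43.3% to 47.7% of all reads, and 10.2% at the median main transcript, with Tubg1 around that median at 9.74% to 15.8%. In Actb they made up 79.5%, 81.8% and 77.0% in the standard libraries and 83.1% and 79.2% in the AHARIBO libraries. In Tuba1b they made up 65.6%, 66.4% and 60.6% against 71.4% and 65.2%, and in Tubb5 54.2%, 54.6% and 50.4% against 61.0% and 54.7%. AHARIBO replicate 1 had the highest percentage of duplicates in each of these 3 genes, and standard replicate 3, the shallowest library, the lowest. The CPM ran the other way, highest in standard replicate 3 and lowest in AHARIBO replicate 1. With duplicates kept, the log2 fold change was -0.02 ± 0.06 (SE) in Tubb5, -0.02 ± 0.07 in Tuba1a, and -0.17 ± 0.07 in Actb. Tubb4b moved the other way, to -0.20 ± 0.07 (SE), and with duplicates kept none of the 10 genes passed the test.

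The other transcripts of these genes, most of which hold a piece of the coding sequence, did not all give the value of their main transcript. Of the 19 protein-coding transcripts, 6 fell, against 2.24% of all transcripts, and none rose. Of these, 5 belonged to Actb and 1 to Actg1. Besides the main Actb transcript they were ENSMUST00000163829.1 (log2 fold change -0.37, adjusted p = 0.0044, edgeR), ENSMUST00000167721.7 (-0.32, adjusted p = 0.01), ENSMUST00000171419.7 (-0.31, adjusted p = 0.014) and ENSMUST00000106216.2 (-0.31, adjusted p = 0.021). These transcripts share most of their sequence with the main transcript, so they add no independent evidence. Without AHARIBO replicate 1 none of the 19 transcripts passed the test, and 1 did without standard replicate 1 or without standard replicate 3.

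In Actg1, the transcript ENSMUST00000128055.1, which covers bases 1 to 633 of the coding sequence counted from the start codon, measured 242, 227 and 261 CPM in standard and 176 and 209 CPM in AHARIBO RIBO-seq. It fell by 0.34 on the log2 scale (SE 0.08, adjusted p = 0.0077, edgeR). Without AHARIBO replicate 1 its log2 fold change was -0.22, and with duplicate reads kept its call was lost (-0.28, adjusted p = 0.055, edgeR). Of its 1021 nt, 327 lie outside the main transcript. By contrast, ENSMUST00000089616.5, which lies between bases 736 and 1128, measured 85.1, 83.6 and 92.8 CPM against 74.0 and 88.5 CPM. Its log2 fold change was -0.10 ± 0.08 (SE), with an adjusted p of 0.56. The sign turned without AHARIBO replicate 1 (0.03) and with duplicate reads kept (0.07).

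This contrast was measured within each library as reads on the other transcript per 100 reads on the main transcript. For the 5′ piece of Actg1, the value was 61.1, 59.3 and 60.9 in standard and 55.5 in both AHARIBO libraries. For the 3′ piece it was 21.4, 21.8 and 21.6 in standard and 23.3 and 23.5 in AHARIBO RIBO-seq. The groups did not overlap in either, and each gave p = 0.1 in a two-sided exact permutation test (n = 3 and 2), the smallest p that this design allows. Adjusted over the 24 other transcripts of the 10 genes, the p-value was 0.24.

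In the other genes, every piece that starts at base 1 also had a lower mean in AHARIBO RIBO-seq, but in several the groups overlapped. They did not overlap in Tuba1b ENSMUST00000140969.1, with 32.3, 31.3 and 32.5 against 30.6 and 30.7. Nor did they in Tuba1c ENSMUST00000230447.1, with 39.7, 39.0 and 40.1 against 38.2 and 38.7 (exact permutation p = 0.2 in each, n = 3 and 2). In Actb, 4 transcripts cover the start of the coding sequence and end by its base 474. Of these, ENSMUST00000163829.1 held 31.1, 30.8 and 32.3 reads per 100 of the main transcript in standard and 29.2 and 29.5 in AHARIBO RIBO-seq (exact permutation p = 0.1, n = 3 and 2). In the other 3 the groups overlapped, as in ENSMUST00000106216.2 with 34.4, 32.0 and 35.1 against 32.7 and 33.2, and the exact permutation p was 0.3 to 0.6. A processed transcript of Tubb4b, ENSMUST00000145607.1, covers bases 1 to 277 and held 31.0, 31.7 and 30.2 against 26.1 and 26.9 (exact permutation p = 0.1, n = 3 and 2). In Tubb5, ENSMUST00000134978.2 covers bases 1 to 416, and its 25.5, 24.6 and 24.8 overlapped with 24.6 and 25.2. In Tubg1, ENSMUST00000137844.1 covers bases 771 to 1158 of the coding sequence, and its 25.0, 19.6 and 15.5 overlapped with 22.5 and 13.2 (exact permutation p = 0.7, n = 3 and 2). Parts of these transcripts lie outside the main transcript, and the ratios include reads there. Such parts make up 490 of 831 nt in ENSMUST00000145607.1, 300 of 762 in ENSMUST00000134978.2 and 464 of 852 in ENSMUST00000137844.1. Of all 24, the AHARIBO libraries lay below the standard libraries in 12 and above them in 3, where 16.3% and 15% of 47413 such transcripts over all genes did so. Many of the 12 are nested pieces of Actb and Actg1 that hold the same sequence.

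**Figure D4:**
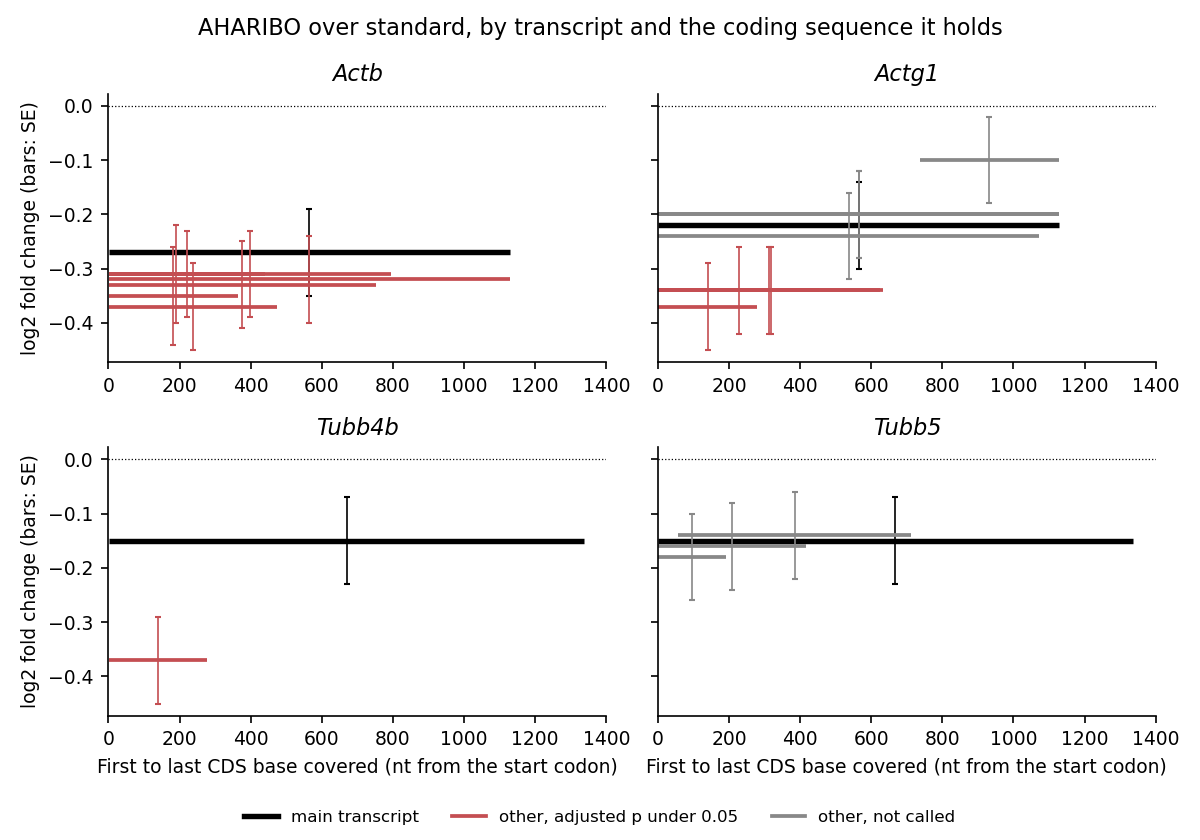
Log2 fold change (AHARIBO over standard RIBO-seq, vertical axis, with SE) of each transcript of Actb, Actg1, Tubb4b and Tubb5, drawn as a line from the first to the last base of the main coding sequence that it covers (horizontal axis, nt from the start codon). In Actg1 the transcripts that stop at base 633 or before lie at -0.34 or below, whereas the one that starts at base 736 lies at -0.10. Bases of a transcript outside the main coding sequence are not drawn, though its reads include them.

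Of the 34 transcripts of any type that were tested, 13 fell and 1 rose, where 2.24% and 2.27% of all transcripts did. The one that rose, ENSMUST00000196997.1, an Actb processed transcript of 241 nt that lies wholly after the coding sequence and was named after its values were seen, held 9, 15 and 13 reads in standard and 54 and 41 in AHARIBO RIBO-seq. Its log2 fold change was 1.53 ± 0.27 (SE), with an adjusted p of 0.00015 in edgeR's quasi-likelihood test. These are 0.164 to 0.301 reads per 100 reads of the main transcript in standard and 0.72 to 0.977 in AHARIBO RIBO-seq, and 43.5% of its windows within the main transcript occur in other genes as well.

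The patterns most like those of Tubb5 and Actb across the 5 libraries were found among 1377 main transcripts with a mean of at least 50 CPM, by the Euclidean distance of mean-centred log2 CPM. For Tubb5 they were Dnmt3l (distance 0.013), Tubb4b (0.016) and Slc25a5 (0.023). For Actb they included Rps28 (0.026) and Hspb1 (0.028). Tubb5 and Tubb4b share none of their 30-nt coding windows.

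Genes that act on tubulin and actin were taken in 12 lists with 98 tested main transcripts. Of these, 4 rose, 3 fell and 91 did not pass the test, where 2.59% of all main transcripts rose and 2.53% fell. The median log2 fold change of the 98 was -0.01. With DESeq2, 0 rose and 1 fell, and Tbcc and Tuba3b, which fell by edgeR, had no adjusted p.

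Among the other tubulins, 1 of 10 fell, 0 rose and the median was -0.20, the lowest of the 12 lists. This gene was Tuba3b, an α-tubulin known from testis, at 11.2, 10.0 and 10.6 CPM against 7.44 and 7.99 CPM (log2 fold change -0.46, adjusted p = 0.048, edgeR). Tuba4a, the highest of the list per kb, had -0.11 (adjusted p = 0.53). None of the 4 muscle-type actins passed the test, and their median was -0.17; Acta1, the highest, had -0.16 (adjusted p = 0.44).

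None of the genes of the folding chaperones passed the test. Of 7 TRiC subunits, the log2 fold changes lay between -0.08 and 0.05, and Cct5, the highest per kb, measured 219, 220.0 and 230.0 CPM against 213 and 226 CPM. The eighth subunit, Cct6a, was not tested in this list, since Gencode M21 types 4 of its deposited transcripts as processed transcripts and the other 3 as retained introns. None of the 6 prefoldin subunits passed either, with Pfdn6 the highest and a range of -0.14 to 0.13. Among the 6 tubulin cofactors, which assemble the tubulin dimer, 1 fell. This was Tbcc, at 13.6, 13 and 10.5 CPM against 9.54 and 8.69 CPM (log2 fold change -0.46 ± 0.14 (SE), adjusted p = 0.042, edgeR). Tbca, the highest of that list, had 0.03.

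None of the 9 genes of tubulin autoregulation and modification passed the test. Ttc5, which reads the N-terminal motif shown above, measured 16.5, 17.2 and 16.8 CPM against 14.8 and 14.3 CPM (log2 fold change -0.21 ± 0.11 (SE), adjusted p = 0.32, edgeR). Hdac6, the tubulin deacetylase, was the highest of the list per kb and had 0.06. Of the 8 partners of γ-tubulin in the ring complex, 0 passed, and Mzt2, the highest, had -0.32 (adjusted p = 0.12).

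Among the microtubule-associated genes, all 9 log2 fold changes were positive. Of the 9, 4 rose and 0 fell, with a median of 0.27, and 6 had both AHARIBO libraries above all standard libraries, where 17.2% of main transcripts had. Kif11, the mitotic kinesin that slides spindle microtubules apart, measured 80.8, 78.4 and 70.9 CPM against 96.6 and 95.5 CPM (log2 fold change 0.32 ± 0.08 (SE), adjusted p = 0.011, edgeR). Ckap5, a microtubule polymerase, had 0.31 (adjusted p = 0.013), Dync1h1, the dynein heavy chain, 0.27 (adjusted p = 0.036), and Kif5b, a kinesin heavy chain, 0.28 (adjusted p = 0.048). Kif5b had 0.15 without AHARIBO replicate 1 and 0.39 without AHARIBO replicate 2. Stmn1, which binds tubulin dimers and was the highest of the list per kb, had 0.01 (adjusted p = 0.96).

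The 4 genes that rose have long coding sequences, of 963 to 4644 codons, whereas the 10 tubulins and actins have 375 to 451. Of 4 classes of main transcripts by coding length, the longest held those of 746 codons or more. There, the median log2 fold change was 0.09, with 195 of 3048 higher and 4 lower. Both AHARIBO libraries lay above all standard libraries in 882 of that class and below them in 199. In the class that holds the 10 genes (285 to 463 codons), the median was -0.03, with 32 of 3056 higher and 65 lower. The part of coding length in these differences was not tested.

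Among the genes that act on actin, 1 passed the test. Pfn1, a profilin that delivers actin monomers to growing filaments, measured 116, 117 and 135 CPM in standard and 91.4 and 101 CPM in AHARIBO RIBO-seq. It fell by 0.35 on the log2 scale (SE 0.08, adjusted p = 0.0067, edgeR), and was the only one of 9 monomer-binding genes to pass. None of 9 Arp2/3 subunits, which branch filaments, passed the test (-0.08 to 0.07, with Arpc3 the highest per kb). None of 16 filament-binding genes passed either (-0.26 to 0.22), and Myl6, a myosin light chain and the highest of them, had -0.13. The 5 genes of actin modification and SRF ranged from -0.05 to 0.19, and Setd3, the actin histidine methyltransferase, was the highest of them. The Pfn1 call was lost without AHARIBO replicate 1 (adjusted p = 0.18) and without standard replicate 3 (0.055), and also with counts summed per gene (0.11) and with the replicate number as a block (0.16). All 4 microtubule-associated calls were lost without AHARIBO replicate 1 and without standard replicate 3. The Tbcc and Tuba3b calls were lost without either AHARIBO library and without standard replicate 1, with adjusted p-values of 0.16 to 0.21 and 0.074 to 0.41, Tbcc also without standard replicate 2 (0.099) and Tuba3b without standard replicate 3 (0.085). With counts summed per gene both were lost (0.31 and 0.26), and with the replicate block Tuba3b was (0.092). The 4 microtubule-associated calls were also lost with counts summed per gene (0.11 to 0.2) and with the replicate block (0.15 to 0.33). Without standard replicate 1, Ckap5 (0.057), Dync1h1 (0.19) and Kif5b (0.14) lost their calls, and Kif5b did so without standard replicate 2 (0.05).

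**Figure D5:**
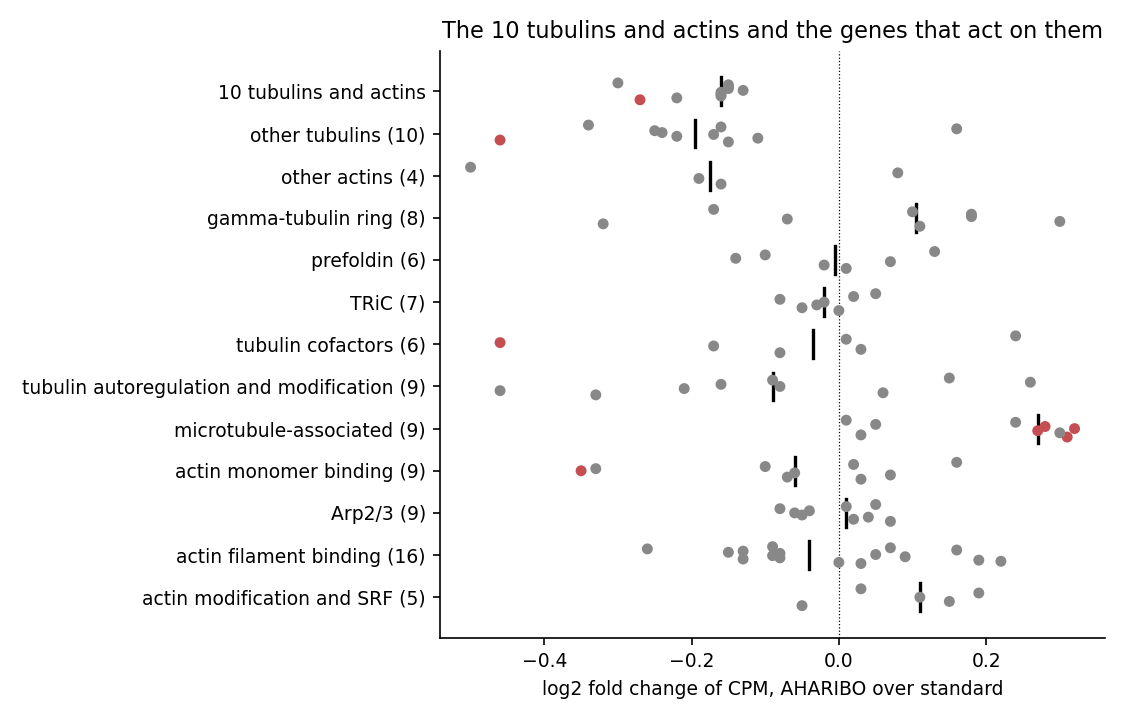
Log2 fold change of CPM (AHARIBO over standard RIBO-seq, horizontal axis) of the main transcripts of the 10 tubulins and actins and of 12 lists of genes that act on them, with the number tested in brackets. Points in red passed an adjusted p of 0.05 and black bars mark each median, which is -0.16 for the 10 genes, -0.02 for TRiC and 0.27 for the microtubule-associated genes.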

How the data were processed

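The 3 standard and 2 AHARIBO RIBO-seq libraries were grouped by their labels. The authors trimmed reads with Trimmomatic 0.36, discarded reads under 20 nt, removed rRNA and tRNA, aligned to Gencode M17 transcripts (GRCm38) with STAR at default settings, and removed antisense and duplicate reads. The authors deposited read counts per transcript, with duplicates removed (used here) and kept (an alternative), and transcript lengths. Per-sample columns not used numbered 0. Without molecular identifiers, duplicate removal also takes independent fragments with the same ends.

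Symbols, types and sequences came from Gencode M21, which matched 99.8% of 135276 transcripts. CPM used TMM factors over all transcripts, before the filter of 1 CPM in at least 1 library. Differences were tested with edgeR 4.0.16 (R 4.3.3; quasi-likelihood, no replicate block, Benjamini-Hochberg over 66972 transcripts). SEs, from the fold change and F, are approximate. DESeq2 1.42.0 was an alternative, as were other scalings, filters, transcript choices, thresholds, the replicate block and each library left out. Ratios were compared by exact permutation tests, of 10 splits. In simulated data edgeR recovered 70% of 1.5-fold and 97.1% of 2-fold changes, with 12 unchanged transcripts called. DESeq2 recovered 33.3% and 78.6%, with 2 called. Changes under 1.5-fold, the size of those of the 10 genes, were not simulated. The floor of 3 counts covers counting error only.

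Named were the 10 genes, their other protein-coding transcripts with adjusted p under 0.05, list genes with adjusted p under 0.05 (at most 12), the highest gene per kb of each list, and for Tubb5 and Actb the 3 genes most alike. Of these, 1 is not reported here. Other genes were named for their sequence or role. The genes, lists and rules were chosen with earlier results of these data known.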

Additional observations from a re-analysis of the deposited data

How the results depend on the processing

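Across 14 alternatives, all 140 log2 fold changes of the 10 genes stayed negative, between -0.39 and -0.004, and the number that rose was 0 under each. The count of genes that fell, 1 in the reported analysis (Actb), was 0 with DESeq2, with 1 CPM required in every library, with counts summed per gene, with duplicate reads kept and at the methods' threshold for RNA-seq (log2 fold change over 1.5, adjusted p of 0.01), and 0 to 2 with each library left out in turn. Actb alone lost its call in 8 alternatives, with adjusted p-values of 0.096 to 0.55, and Actg1 gained one without AHARIBO replicate 2. The 6 of 19 protein-coding transcripts of these genes that were called became 3 with DESeq2, 2 with duplicate reads kept, 0 at the methods' threshold, and 0 to 9 with each library left out. The 4 list genes that rose became 0 with DESeq2 and with counts summed per gene, 2 with RLE factors, 2 with duplicate reads kept, 0 at the methods' threshold, and 0 to 5 with each library left out. The 3 list genes that fell became 1, Pfn1, with DESeq2, with library size only and with 1 transcript per gene, 0 with counts summed per gene, 0 at the methods' threshold, and 0 to 2 with each library left out. With DESeq2, Tbcc and Tuba3b had no adjusted p and so could not be called. The causes of these changes were not tested.

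The replicate numbers are shared by 2 standard and 2 AHARIBO libraries, and same-numbered libraries did not deviate together (correlations of 0.0386 and -0.083). With the replicate block, in which standard replicate 3 has no partner, 0 of the 10 genes and 0 of their 19 protein-coding transcripts passed the test, 0 list genes rose and 1 fell (Tbcc), and Actb had a log2 fold change of -0.22 (adjusted p = 0.47). With windows of 25 nt, the shared part of the coding sequence was 8.62% in Tubb5 and 54.8% in Actb. Reads per library limit Tubg1, at 161 to 213 reads, more than the other genes.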
